A study of Homo sapiens with 12 samples.

Results

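The measurement described here is the response of oxamate-resistant MIAPaCa2 cells to oxamate, read as mRNA levels across all expressed genes in 6 of the 12 RNA-seq libraries of the study. Its members were taken from the sample labels alone. They were 3 libraries of resistant cells given the LDHA inhibitor against 3 libraries of resistant cells labelled untreated. The paper describes the control cells of its RNA-seq as given vehicle. MIAPaCa2 is an established line from a pancreatic ductal adenocarcinoma, and the resistant cells were derived from it by weeks of continuous culture in oxamate, as a surviving population rather than a picked clone. The other 6 libraries, 3 of untreated and 3 of treated parental MIAPaCa2 cells, served in the shared fit and in the test of whether the response of resistant cells differed from that of parental cells. The labels carry no dose and no duration of the treatment before RNA was taken, and the sources used here do not say how long the untreated resistant cells had been without oxamate. The labels also do not say whether replicates came from separate cultures, so the p-values measure only the spread between these samples, which may be technical.

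Oxamate resembles pyruvate and competes with it for lactate dehydrogenase, the enzyme that turns pyruvate into lactate and regenerates the NAD+ that glycolysis needs. Several regulators read the state of this metabolism at the level of transcription. Hypoxia-inducible factor (HIF) drives glycolytic enzymes, glucose carriers and a set of secreted and lipid-storage proteins. The integrated stress response acts through ATF4, which raises amino acid synthesis, amino acid carriers and the aminoacyl-tRNA synthetases that charge tRNA. The factor MTF1 raises the metallothioneins, small proteins that bind zinc and copper.

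The deposited expected counts summed to between 52774422 and 55239600 per untreated resistant library and to between 46698729 and 53384114 per treated one. Levels are given in CPM, the count scaled to a common library total after TMM normalization, and changes as log2 fold changes of treated over untreated cells with their standard error (SE). The markers of the line held: CDKN2A, CDKN2B and MTAP, which MIAPaCa2 lacks by deletion, had 0 counts in all 6 libraries, and KRT8, KRT18, KRT19 and VIM were high, while EPCAM and CDH1 were at or near 0. All 7 acinar and islet markers were at or under 3 counts per library. Of the markers of other cells, DCN, LUM, CD3E and KDR had 0 counts, and the summed level of the 8 fibroblast markers, 718 to 750.3 CPM in untreated and 792 to 809.7 CPM in treated cells, was almost all COL1A2. The 7 blood cell markers summed to 62.8 to 66.2 and 60.8 to 62.4 CPM, mostly CD68, and the 5 endothelial markers to at most 1.28 CPM in every library.

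Resistant cells changed few well-expressed genes by a large amount and many by a small one. Of 14582 genes tested, 9623 had a mean level over the 12 libraries of 8 CPM or more and 4959 a lower one. At the threshold of the study, an unadjusted p under 0.05 with a change over 1.5-fold, 12 of the well-expressed genes were called higher (0.125%) and 11 lower (0.114%). Below 8 CPM the same rule called 313 genes higher (6.31%) and 29 lower (0.585%). With a Benjamini-Hochberg adjusted p under 0.05 in edgeR's quasi-likelihood test as well, 6 of the 12, all 11, 163 of the 313 and 12 of the 29 remained. By the adjusted p alone, with no demand on size, 860 well-expressed genes rose (8.94%) and 1763 fell (18.3%), and over all genes tested 1314 rose (9.01%) and 1825 fell (12.5%). The median size of the change among these well-expressed genes was 0.16 on the log2 scale, and 326 of them rose and 402 fell by more than 0.2. The excess of falls rested on the scaling: upper-quartile factors gave 1166 rises and 1224 falls, and library size alone gave 1246 and 1138, while the median of all genes moved by 0.023 and 0.031. Changes smaller than these shifts take their sign from the scaling. Fewer cells with an mRNA and less of it per cell cannot be told apart in these bulk samples.

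**Figure D1:**
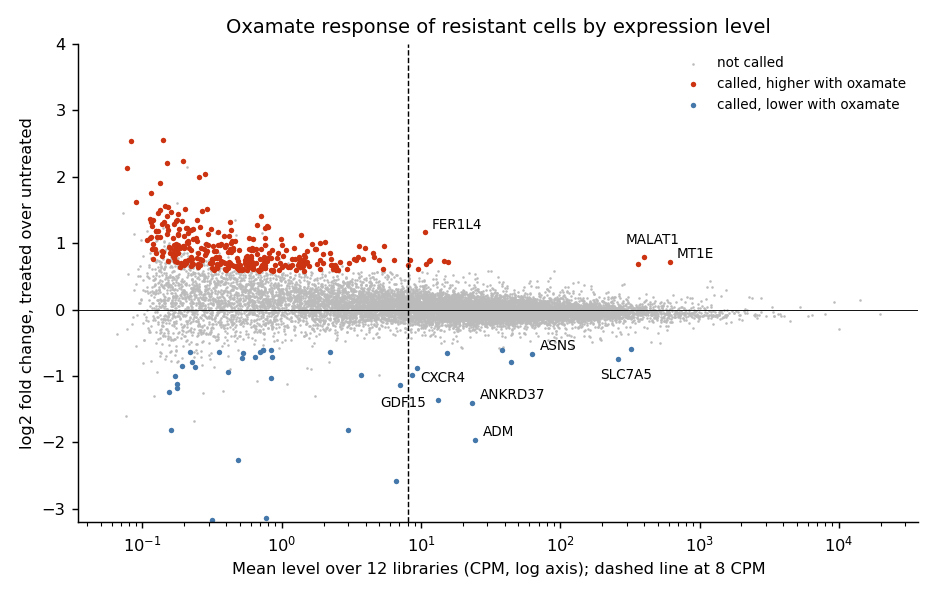
Each point is a gene tested in resistant cells, with its mean level over the 12 libraries in CPM on a log axis and its log2 fold change of oxamate-treated over untreated cells. Genes called at p under 0.05 and over 1.5-fold are red (higher) or blue (lower), the dashed line stands at 8 CPM, and 8 genes lie outside the vertical range. Most of the 325 genes called higher lie left of the line, and 11 of the 40 called lower lie right of it.

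The largest falls among well-expressed genes were in HIF targets and stress-induced secreted proteins. ADM encodes adrenomedullin, a vasodilator peptide induced by hypoxia. It stood at 16.5, 16.8 and 16.3 CPM in the untreated libraries and at 4.08, 4.05 and 4.56 CPM in the treated ones, a log2 fold change of -1.96 (SE 0.058, edgeR quasi-likelihood adjusted p 1.3e-11, n = 3 per group). The lowest untreated library lay far above the highest treated one. ANKRD37, an ankyrin-repeat protein and direct HIF target, went from 17.01, 16.04 and 16.3 to 6.53, 6.19 and 5.92 CPM (-1.41, SE 0.05, edgeR adjusted p 6.63e-11). HILPDA, which coats lipid droplets and restrains their lipolysis, measured 45.04, 43.7 and 41.6 CPM untreated and 25.3, 24.8 and 25.04 CPM treated (-0.79, SE 0.034). In each of these 3 genes the groups did not overlap. SLC2A3, the high-affinity glucose carrier GLUT3, was at 247, 252 and 249.6 CPM before and 167, 163 and 165 CPM after oxamate (-0.60, SE 0.023).

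Other falls of this size lay in genes of cell stress and signalling. GDF15, a secreted cytokine of stressed cells, went from 16.1, 15.1 and 14.98 to 6.26, 5.34 and 6.39 CPM (-1.36, SE 0.069, edgeR adjusted p 4.05e-09). NUPR1, a small nuclear protein induced by stress, measured 11.6, 10.6 and 9.45 CPM untreated and 5.24, 6.31 and 5.605 CPM treated (-0.88, SE 0.078). CXCR4, the receptor of the chemokine CXCL12, had levels of 6.56, 6.72 and 6.23 and 3.33, 3.097 and 3.42 CPM (-0.98, SE 0.068). For GDF15, NUPR1 and CXCR4 the treated replicates lay below all untreated replicates. CXCR4 reached the 8 CPM limit only through the mean over all 12 libraries, as all 6 resistant libraries were below it. With the mean over the 6 resistant libraries 10 genes were called lower. HKDC1, a hexokinase-related protein, fell from 13.9 ± 0.515 to 8.87 ± 0.171 CPM (SD, n = 3). CREB3L3, a transcription factor held in the endoplasmic reticulum membrane, fell from 25.7 ± 0.497 to 16.9 ± 0.595 CPM (SD, n = 3), log2 fold changes of -0.65 and -0.61. The 11 genes were completed by SLC7A5 and ASNS, described with the amino acid genes. All 11 kept an adjusted p under 0.05 whichever replicate was left out, and in a test against the 1.5-fold change itself (edgeR's glmTreat) 6 of them passed.

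**Figure D2:**
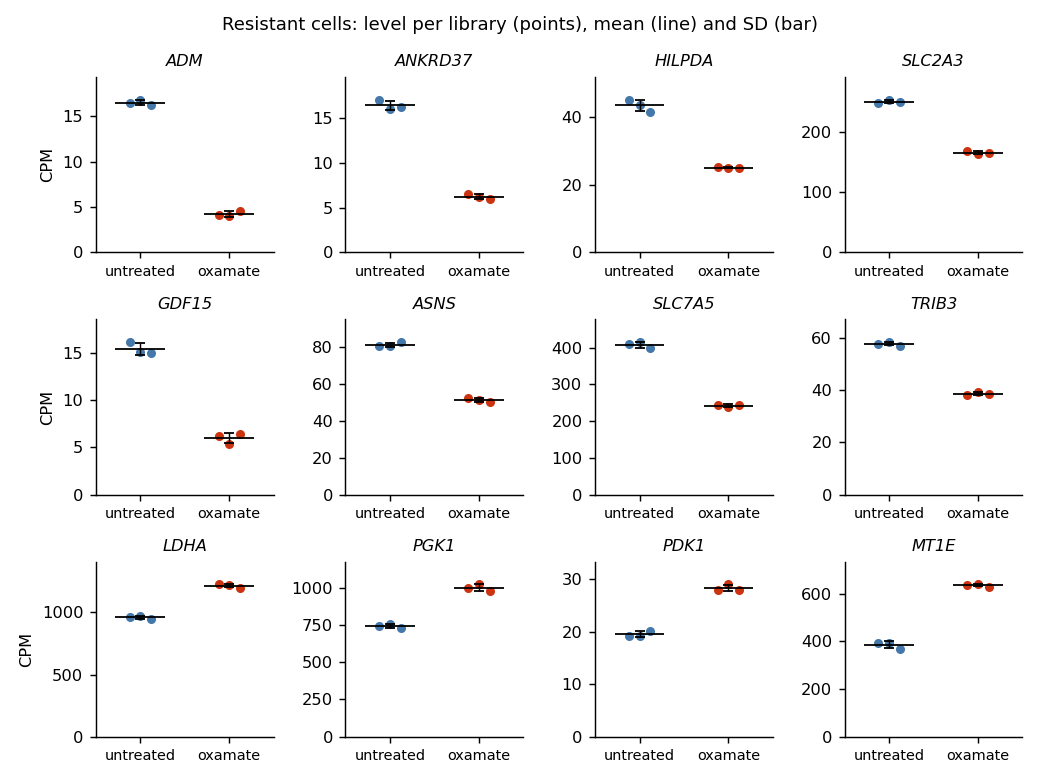
Levels in CPM of 12 genes in the 3 untreated (blue) and 3 oxamate-treated (red) libraries of resistant cells, with the mean as a line and the SD as a bar, each panel on its own linear axis from 0. In the panels of ADM, ANKRD37, HILPDA, SLC2A3, GDF15, ASNS, SLC7A5 and TRIB3 the treated points lie below the untreated ones, and in those of LDHA, PGK1, PDK1 and MT1E above them.

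Of the 12 well-expressed genes called higher, 6 also had an adjusted p under 0.05. MT1E, a metallothionein, was at 393, 394 and 368 CPM untreated and 638, 639 and 629 CPM treated (0.72, SE 0.044, edgeR adjusted p 3.24e-08). RIMKLA, an enzyme that joins N-acetylaspartate to glutamate, went from 5.64, 6.15 and 6.16 to 9.88, 10.03 and 10.3 CPM (0.75, SE 0.054). Both were well separated between groups. FER1L4, a long noncoding RNA, read 7.905, 6.55 and 10.3 CPM untreated and 17.9, 16.3 and 21.04 CPM treated (1.16, SE 0.23, edgeR adjusted p 0.00243). Its untreated replicate 3 stood above the other untreated replicates, still below every treated one. PPFIA4, a liprin scaffold protein and HIF target (0.72, SE 0.18), SH3D21 (0.73, SE 0.18) and GOLGA8N (0.69, SE 0.14) completed the 6. With the nuclear RNA covariate described further on, the edgeR adjusted p was 0.154 for PPFIA4 and 0.119 for SH3D21. FER1L4 (0.51) and GOLGA8N (0.32) kept an adjusted p under 0.05 there but were under 1.5-fold, so MT1E (0.74) and RIMKLA (0.77) were the 2 still called. GOLGA8N belongs to a golgin family of near-identical copies, whose shared reads RSEM divides, so its level is uncertain.

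The remaining 6, MALAT1, NEAT1, GOLGA8A, AHSA2, GIPR and HSF4, had edgeR adjusted p-values between 0.064 and 0.13. MALAT1, a noncoding RNA of nuclear speckles, measured 273, 244 and 597 CPM in the untreated libraries and 577, 609 and 742 CPM in the treated ones. NEAT1, the scaffold of paraspeckles, measured 303, 284 and 504 and 645, 458 and 648 CPM. For both, untreated replicate 3 lay within the range of the treated libraries, and the groups overlapped. With the replicate number as a block, edgeR's adjusted p became 0.00198 for MALAT1, 0.00294 for GOLGA8A and 0.0123 for NEAT1. It became 0.0153 for AHSA2, 0.031 for HSF4 and 0.0424 for GIPR. The pairing behind this block is uncertain, as described with the processing. With the mean level of nuclear-retained RNAs as a covariate the log2 fold changes of these 6 genes lay between -0.1976 (HSF4) and 0.0062 (MALAT1), and none passed. MALAT1 and NEAT1 are themselves part of that covariate, so for these genes a value near 0 was set in advance and is no test.

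Untreated replicate 3 was rich in nuclear-retained RNA, and the number of genes called higher moved when it was left out. The 5 noncoding RNAs used as its measure, MALAT1, NEAT1, MIAT, KCNQ1OT1 and TUG1, summed to 678 and 626 CPM in untreated replicates 1 and 2, to 1217 CPM in untreated replicate 3, and to 1342, 1183 and 1516 CPM in the treated replicates. MIAT had 4.52, 3.49 and 7.87 CPM untreated and 10.9, 7.65 and 12.2 CPM treated, and KCNQ1OT1, an antisense transcript of an imprinted locus, 2.18, 2.07 and 3.41 and 4.04, 4.68 and 4.11 CPM. Of the 5 RNAs, 1 (MIAT) had an edgeR adjusted p under 0.05, and all 5 had with the replicate block. Without untreated replicate 3 the number of well-expressed genes called higher went from 12 to 33, and of lower-level genes called higher from 313 to 481. Without untreated replicate 1, untreated replicate 2 or treated replicate 3 the first number was 6 each, and without treated replicate 2 it was 20. With the mean log2 level of the 5 RNAs as a covariate it was 2, and the number of lower-level genes called higher was 150. The covariate was higher in the treated libraries, so nuclear RNA and treatment cannot be fully told apart. With the covariate 13 well-expressed genes were called lower, against 11 without it, and 44 low genes against 29. At an adjusted p alone, falls among well-expressed genes went from 1763 to 897 with the covariate and rises from 860 to 460.

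**Figure D3:**
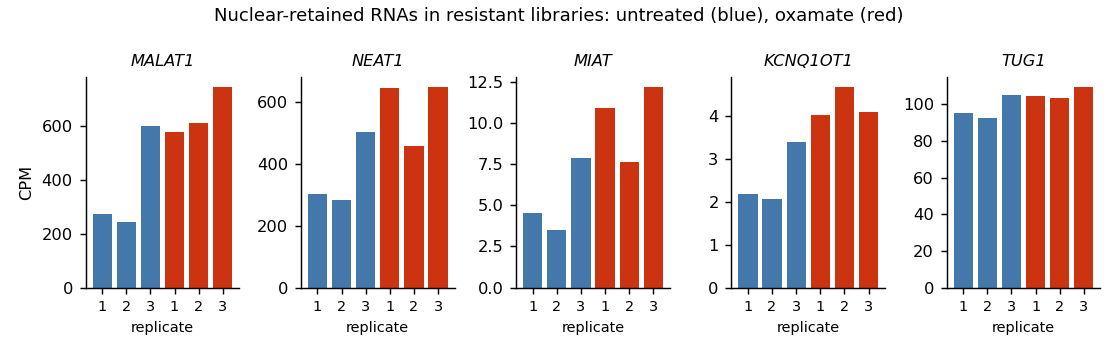
Bars give the level in CPM of 5 nuclear-retained noncoding RNAs in each of the 6 libraries of resistant cells, untreated in blue and oxamate-treated in red, on linear axes from 0. Untreated replicate 3 stands above untreated replicates 1 and 2 in all 5 panels, at 597 CPM for MALAT1 against 273 and 244.

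The genes called below 8 CPM were mostly very low. Of the 313 called higher, 247 had a mean under 1 CPM and 66 lay between 1 and 8 CPM, with a median of 0.418 CPM, and 250 had groups that did not overlap. Over all 4959 low genes 1127 (22.7%) were higher in every treated than in every untreated library. The 313 genes were higher in untreated replicate 3 than in the mean of untreated replicates 1 and 2 in 228 cases (72.8%), against 57.6% of all low genes, with a median log2 difference of 0.27 against 0.039. Of the 290 that matched a RefSeq entry, 61.4% were protein coding and 28.3% long noncoding RNAs, against 77% and 15.9% of the low genes tested. Their median genomic span was 10.4 kb, against 22.1 kb. Zinc finger genes with a ZNF symbol made up 4.47% of the 313 and 5.36% of the low genes, counts chosen after the values were seen. The part of nuclear RNA in these calls was not tested beyond the fit with the covariate.

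Among low genes with an adjusted p under 0.05 and separate groups, those with the smallest p that rose were MT1M, ACTRT3, ZNF552, TMEM45A, DOK3, DNAJC28, ZNF224 and ZNF587B. MT1M, a metallothionein, was at 2.53 ± 0.101 CPM untreated and 4.92 ± 0.236 CPM treated (SD, n = 3; 0.96, SE 0.092, edgeR adjusted p 4.7e-06). ACTRT3, an actin-related protein, went from 2.98, 2.92 and 2.86 to 4.57, 4.68 and 4.45 CPM (0.64, SE 0.077). TMEM45A, a membrane protein and HIF target, went from 1.099, 1.24 and 0.959 to 2.05, 1.84 and 2.08 CPM (0.85, SE 0.12). In none of these 3 was untreated replicate 3 the highest of its group. The zinc finger gene ZNF224, at 5.08, 5.68 and 7.104 CPM untreated and 9.17, 8.44 and 9.58 CPM treated, had its highest untreated level in replicate 3, as had ZNF587B, at 1.41, 1.43 and 1.83 and 2.64, 2.59 and 3.32 CPM. The other 3 had log2 fold changes of 0.62 (ZNF552), 0.69 (DOK3, an adaptor of immune receptor signalling) and 0.79 (DNAJC28).

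Low genes that fell by the same rule were GTF2H2, BLOC1S5-TXNDC5, INO80B-WBP1, LOC100506082, INHBE, BIN2, FOXP4-AS1 and PAPL. GTF2H2, a subunit of transcription factor TFIIH, was at 9.34, 6.47 and 8.01 CPM untreated and 2.43, 4.92 and 3.47 CPM treated (-1.14, SE 0.18). The gene has near-identical copies, so its counts are uncertain. BLOC1S5-TXNDC5 and INO80B-WBP1 are readthrough transcripts that share nearly all their sequence with their parent genes. The first went from 15.5, 12.2 and 5.96 to 2.09, 0.987 and 2.47 CPM, and the second had 34, 20 and 11 counts untreated and 0 in every treated library, at least 19.8-fold lower against a floor of 3 counts over the treated group. INHBE, an activin subunit, had 41, 45 and 34 counts untreated and 20, 24 and 28 treated (-0.64, SE 0.16). BIN2 (-0.73), FOXP4-AS1 (-0.72), PAPL (-0.94) and LOC100506082 (-0.65) were all under 1 CPM. The members nearest the 8 CPM limit were GOLGA8A (8.01 CPM) and HSF4 (8.31 CPM) above it and GTF2H2 (7.06 CPM) and BLOC1S5-TXNDC5 (6.61 CPM) below it.

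Genes of the integrated stress response fell together. Of 39 measured members 26 fell and 1 rose at an adjusted p under 0.05 in edgeR's quasi-likelihood test, where 12.5% of all genes fell and 9.01% rose. The median log2 fold change was -0.23, against 0.00 over all genes tested. ASNS, asparagine synthetase, measured 80.3, 80.2 and 82.4 CPM untreated and 51.98, 51.1 and 50.3 CPM treated (-0.66, SE 0.028, adjusted p 4.79e-10 in edgeR). TRIB3, a pseudokinase that feeds back on ATF4, went from 57.9, 58.4 and 57.1 to 38.05, 39.2 and 38.7 CPM (-0.58, SE 0.035). PSAT1 and PHGDH, enzymes of serine synthesis, fell by less: PSAT1 from 130.1 ± 2.29 to 92.6 ± 1.99 CPM and PHGDH from 115 ± 1.97 to 90.1 ± 1.16 CPM (SD, n = 3). MTHFD2, a mitochondrial folate enzyme, changed by -0.40 (SE 0.03), CTH, which makes cysteine from cystathionine, by -0.56 (SE 0.048), and CEBPG, a partner of ATF4, by -0.41 (SE 0.026). DDIT4, an inhibitor of mTORC1 that is also on the HIF list, went from 461, 471 and 452 to 331, 325 and 329 CPM (-0.49, SE 0.03).

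The messenger of the regulator itself did not pass. ATF4 had 272, 267 and 278 CPM untreated and 259, 255 and 258 CPM treated (-0.08, edgeR adjusted p 0.0529), DDIT3 had a log2 fold change of -0.04 (edgeR adjusted p 0.668), and ATF3 of -0.16 (edgeR adjusted p 0.15). The member that rose was CHAC1, which breaks down glutathione, from 11.9, 11.8 and 11.6 to 13.1, 13.3 and 13.7 CPM (0.19, edgeR adjusted p 0.0155). No member of the list rose in DESeq2, with the nuclear RNA covariate, or without untreated replicate 2 or treated replicate 3. ATF4, DDIT3, ATF3 and CHAC1 were named after their values had been seen.

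Amino acid carriers and tRNA synthetases showed the same direction. Of 24 amino acid transporters 9 fell (37.5%) and 1 rose (4.17%), with a median of -0.17, where 12.5% of all genes tested fell and 9.01% rose. SLC7A5, the light chain of the LAT1 carrier of large neutral amino acids, measured 409, 415 and 398 CPM untreated and 244, 239 and 245 CPM treated (-0.75, SE 0.026, edgeR adjusted p 5.82e-11). Its heavy chain SLC3A2 measured 156, 157 and 159 and 119, 115 and 120.2 CPM (-0.41, SE 0.027). The glutamine carrier SLC1A5 measured 217, 217 and 216 and 163, 159 and 161 CPM (-0.42, SE 0.026), with no overlap between the groups in any of the 3. Falls were also found for the glycine carrier SLC6A9 (-0.51), the neutral amino acid carriers SLC1A4 (-0.42), SLC38A1 (-0.15), SLC38A2 (-0.19) and SLC43A1 (-0.21), and the arginine carrier SLC7A1 (-0.21). SLC6A6, the taurine carrier, rose by 0.16 on the log2 scale. The call for SLC6A6 was lost when any replicate but untreated replicate 3 was left out, and SLC7A11, the cystine carrier, at 13.3, 13.6 and 14.8 CPM untreated and 12.4, 12.4 and 12.00 CPM treated, had an edgeR adjusted p of 0.064.

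Of 23 cytosolic aminoacyl-tRNA synthetase genes 17 fell (73.9%, against 12.5% of all genes tested) and 0 rose, with a median of -0.15. No member rose in DESeq2 or at an unadjusted p under 0.05, and 1 rose with library size alone, with the 6 resistant libraries alone or with the nuclear RNA covariate. With that covariate 14 fell, and 10 with the covariate and the replicate block. AARS, which charges alanine tRNA, measured 667, 677 and 672 CPM untreated and 477, 466 and 482 CPM treated (-0.50, SE 0.022, edgeR adjusted p 7.33e-10). YARS (-0.46, SE 0.025), MARS (-0.42, SE 0.024), SARS (-0.39, SE 0.029), GARS (-0.36, SE 0.024) and CARS (-0.35, SE 0.024), which charge tyrosine, methionine, serine, glycine and cysteine tRNA, followed.

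The promoters of these genes were searched for the core of the C/EBP-ATF response element, the site that ATF4 binds with its partners, to set the falling genes beside the others. The letters searched were TGATGNAA on both strands, in RefSeq windows of 300 bases (250 before and 50 after the start of a gene, build GRCh38.p14). Of all 27305 windows 3.67% held a match. Of the 17 synthetase genes that fell 14 matched a window, and 6 of these (42.9%) held the motif: AARS, CARS, IARS, MARS, NARS and TARS. None of the 5 windows of the synthetase genes that passed no test held it. Of the 26 stress response genes that fell 21 had a window and 3 (14.3%) held it, ASNS, SLC3A2 and SLC7A1. Among stress response genes that passed no test 1 of 8 windows (12.5%) held it, that of ATF3, and so did the window of CHAC1, which rose. As only 1 gene of this list rose, the motif cannot be set against the direction of the change here. The windows of ASNS (chr7:97872359-97872658, minus strand) and MARS (chr12:57487818-57488117, plus strand), with log2 fold changes of -0.66 and -0.42, are shown with the match in capitals, 5′ to 3′ along the gene.
ASNS: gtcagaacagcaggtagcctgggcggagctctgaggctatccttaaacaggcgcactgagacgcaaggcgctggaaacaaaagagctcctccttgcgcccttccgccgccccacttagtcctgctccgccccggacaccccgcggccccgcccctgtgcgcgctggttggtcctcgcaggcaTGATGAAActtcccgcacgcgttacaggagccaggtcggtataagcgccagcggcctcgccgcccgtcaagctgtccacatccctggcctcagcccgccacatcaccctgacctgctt
MARS: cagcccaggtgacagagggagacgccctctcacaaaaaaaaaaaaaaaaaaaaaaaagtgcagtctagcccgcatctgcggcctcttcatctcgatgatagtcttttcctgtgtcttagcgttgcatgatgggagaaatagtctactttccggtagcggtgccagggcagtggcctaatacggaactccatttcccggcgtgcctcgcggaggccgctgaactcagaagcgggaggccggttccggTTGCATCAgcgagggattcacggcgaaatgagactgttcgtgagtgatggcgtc
A match is a description of the letters, and no binding was measured.

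LDHA and 14 of 20 glycolysis genes rose. The glucose carriers SLC2A1 and SLC2A3 and some genes at the entry of glycolysis fell, while others there rose. SLC2A6, another hexose carrier, rose (log2 fold change 0.147 to 0.219 over the alternatives). Its call was lost with the nuclear RNA covariate (edgeR adjusted p 0.0795). The lactate list as a whole had no direction. LDHA, the target of the inhibitor, measured 966, 969.9 and 944 CPM in untreated and 1223, 1217 and 1198 CPM in treated resistant cells (0.34, SE 0.031, edgeR adjusted p 3.14e-06), with every treated library above every untreated one. LDHB, the gene of the other main subunit, had 0 counts in all 6 libraries. Of 16 genes of lactate production and transport 4 rose (25%) and 1 fell (6.25%, or 3 genes with the replicate block), with a median of 0.00. Of all genes tested 9.01% rose and 12.5% fell. The share of the list called either way, 31.2%, was close to the 27.3% of all well-expressed genes. The list members that rose with LDHA were pyruvate dehydrogenase kinases, which inhibit the pyruvate dehydrogenase complex. PDK1 went from 19.1, 19.3 and 20.2 to 27.98, 29.04 and 27.99 CPM (0.53, SE 0.042). PDK3 went from 28.3, 29.6 and 29.7 to 40.3, 40.6 and 41.7 CPM (0.49, SE 0.031), and PDK2 changed by 0.19 (SE 0.057). The call for PDK2 was not stable: its adjusted p was 0.0266 in edgeR as reported, 0.0523 in DESeq2, and between 0.0566 and 0.0884 in edgeR without untreated replicate 1 or 3 or treated replicate 1 or 3. PDP2, a phosphatase with the opposite action, fell from 61.6 ± 2.44 to 51.6 ± 1.46 CPM (SD, n = 3). The lactate carriers SLC16A1 (-0.01, edgeR adjusted p 0.774) and SLC16A3 (0.01, edgeR adjusted p 0.897) did not pass.

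Of 20 glycolysis genes 14 rose (70%) and 3 fell (15%), with a median of 0.16, where 9.01% of all genes tested rose and 12.5% fell. PGK1, phosphoglycerate kinase, measured 746, 757 and 726 CPM untreated and 998, 1021 and 977 CPM treated (0.43, SE 0.028, edgeR adjusted p 6.7e-08). GPI, phosphoglucose isomerase, measured 1013, 1025 and 1018 and 1261, 1228 and 1277 CPM (0.30, SE 0.024). ALDOC (0.43, SE 0.033), ENO2 (0.39, SE 0.043) and PFKFB4 (0.42, SE 0.034), an aldolase, an enolase and a kinase-phosphatase that sets the level of fructose 2,6-bisphosphate, rose by similar amounts. The 3 that fell sit at the entry and its control, but HK1, PFKL and PFKP, which act there too, rose, as did PFKFB4. HK1, PFKL and PFKP were named after their values had been seen. PFKFB3, the sister of PFKFB4 with high kinase activity, went from 101, 98.4 and 100.2 to 74.5, 74.1 and 76.2 CPM (-0.41, SE 0.025). The glucose carrier SLC2A1 went from 100.3, 100.4 and 100.2 to 85.4, 89.03 and 87.7 CPM (-0.20, SE 0.024). Hexokinase HK2 went from 157, 158 and 160.1 to 141, 139 and 143 CPM (-0.16, SE 0.024). The counts were 14 and 3 under every alternative normalization, filter, tool, covariate and block, and with each resistant replicate left out.

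HIF targets outside glycolysis split. Of 40 genes of the list measured, 17 rose (42.5%) and 12 fell (30%), against 9.01% and 12.5% of all genes tested. The list also counts genes of HIF subunits, such as HIF1A and EPAS1, and PFKFB4, which rose and is on the glycolysis list too. The median was 0.08 against 0.00 over all genes. Beside the falls of ADM, ANKRD37, HILPDA and SLC2A3, DDIT4 fell as given above. ANGPTL4, an inhibitor of lipoprotein lipase, fell from 71.4, 73.99 and 72.1 to 59.1, 58.7 and 58.4 CPM (-0.30, SE 0.03). BHLHE40, a transcriptional repressor, fell from 115 ± 6.93 to 88.2 ± 2.2 CPM (SD, n = 3). The members that rose include FAM162A (0.33, SE 0.035), the collagen prolyl hydroxylases P4HA2 (0.25, SE 0.027) and P4HA1 (0.20, SE 0.033), and NDRG1 (0.23, SE 0.022), a stress-responsive growth regulator. NDRG1 stood at 199.9, 198 and 196 CPM untreated and 233, 232 and 233 CPM treated. CA9, carbonic anhydrase 9, had 0, 1 and 2 counts untreated and 8, 5 and 5 treated, a ratio per total count of 6.57 with an exact 95% interval of 1.92 to 34.8 that covers counting error only. HIF1A (0.02, edgeR adjusted p 0.492) and EPAS1 (-0.00, edgeR adjusted p 0.956), which encode HIF subunits, did not pass. CA9, HK2, SLC16A1, SLC16A3, SLC7A11, HIF1A and EPAS1 were named after their values had been seen.

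The core letters of the hypoxia response element, ACGTG and GCGTG on both strands, were in the windows of all 7 HIF targets that fell and had a RefSeq window, in 11 of 15 (73.3%) of those that rose, in 7 of 10 (70%) of those that passed no test, in 10 of 14 (71.4%) glycolysis genes that rose, in all 3 that fell, and in 48.4% of all windows. The 10 that passed no test include HIF1A and EPAS1, which encode HIF subunits, and PFKFB4 is among both the 15 and the 14. So short a motif is common, and holding it did not separate rises from falls. ANKRD37 (chr4:185396591-185396890, plus strand) and PGK1 (chrX:78103998-78104297, plus strand) show this for a gene that fell and a gene that rose, with the matches in capitals.
ANKRD37: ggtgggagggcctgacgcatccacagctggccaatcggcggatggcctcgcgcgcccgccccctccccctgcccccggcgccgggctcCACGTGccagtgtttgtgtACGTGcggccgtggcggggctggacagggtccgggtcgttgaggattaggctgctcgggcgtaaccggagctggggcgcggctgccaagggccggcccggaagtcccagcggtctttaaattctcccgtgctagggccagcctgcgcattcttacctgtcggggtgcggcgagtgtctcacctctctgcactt
PGK1: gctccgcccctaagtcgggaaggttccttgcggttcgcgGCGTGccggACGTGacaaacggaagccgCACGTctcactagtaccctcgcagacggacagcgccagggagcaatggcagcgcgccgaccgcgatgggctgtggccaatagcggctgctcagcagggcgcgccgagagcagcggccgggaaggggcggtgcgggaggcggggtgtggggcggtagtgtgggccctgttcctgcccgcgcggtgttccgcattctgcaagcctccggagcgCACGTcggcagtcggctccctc
The windows hold 3 and 4 matches, and matches that overlap run together.

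Metallothioneins rose as a group of few members. Of 10 genes of metal binding and zinc response 5 rose (50%) and 1 fell (10%), against 9.01% and 12.5% of all genes tested, with a median of 0.29. Beside MT1E and MT1M, MT1X measured 109.7, 107 and 103 CPM untreated and 139, 133 and 136 CPM treated (0.35, SE 0.055), and MT2A measured 909, 929 and 869.6 and 1073, 1026 and 1048 CPM (0.22, SE 0.05, edgeR adjusted p 0.00687). SLC30A1, the zinc exporter that MTF1 also controls, went from 14.6, 14.1 and 15.1 to 18.5, 19.3 and 18.7 CPM (0.36, SE 0.044). MT1A fell from 12.8, 12.7 and 12.2 to 10.05, 9.49 and 9.23 CPM (-0.39, SE 0.056), and the messenger of MTF1 did not pass (0.02, edgeR adjusted p 0.786; MTF1 was named after its value had been seen). Metallothionein genes are close copies, so reads may be divided between them with error.

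Metal response element cores, TGCGCNC and TGCACNC on both strands, lie in 29.3% of all windows. Of the 5 genes that rose the 3 with a RefSeq window, MT1X, MT2A and SLC30A1, all held it, with 4, 8 and 2 matches, and MTF1 and SLC39A10, which passed no test, held none. The windows of MT2A (chr16:56608334-56608633, plus strand) and MT1X (chr16:56682220-56682519, plus strand) are given with the matches in capitals because they carry the most.
MT2A: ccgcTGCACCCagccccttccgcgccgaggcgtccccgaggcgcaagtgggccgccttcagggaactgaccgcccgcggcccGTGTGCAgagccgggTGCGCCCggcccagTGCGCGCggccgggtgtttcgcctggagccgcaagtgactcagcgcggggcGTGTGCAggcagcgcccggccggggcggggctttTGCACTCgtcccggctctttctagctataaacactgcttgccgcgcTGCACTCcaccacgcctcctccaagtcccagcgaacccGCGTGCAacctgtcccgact
MT1X: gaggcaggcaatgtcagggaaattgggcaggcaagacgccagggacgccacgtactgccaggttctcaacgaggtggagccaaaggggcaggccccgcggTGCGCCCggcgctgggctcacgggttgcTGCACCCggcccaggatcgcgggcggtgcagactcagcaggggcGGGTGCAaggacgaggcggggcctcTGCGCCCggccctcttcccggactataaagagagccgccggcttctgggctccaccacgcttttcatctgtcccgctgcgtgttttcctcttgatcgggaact

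**Figure D4:**
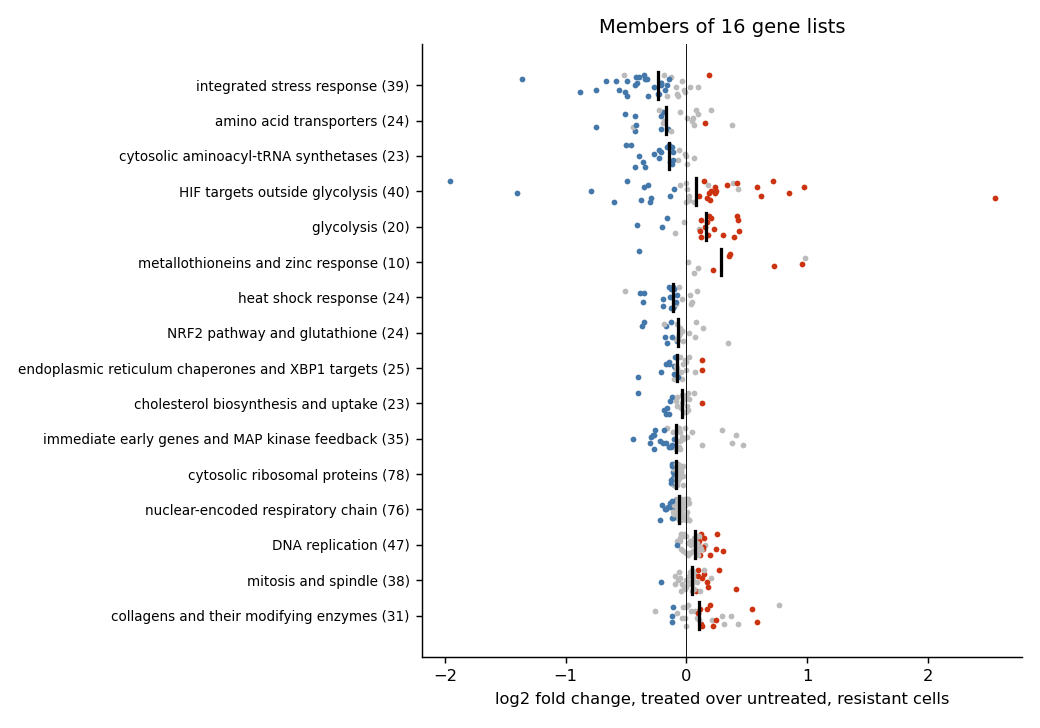
Each point is a gene of 1 of 16 lists (number tested in brackets) at its log2 fold change of treated over untreated resistant cells, red or blue where it rose or fell at an adjusted p under 0.05 and grey otherwise, and black bars are list medians. The medians run from -0.23 for the integrated stress response to 0.29 for the metallothioneins, and the HIF targets spread to both sides of 0.

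Many heat shock genes fell by small amounts. Of 24 heat shock genes 16 fell (66.7%) and 0 rose (0 in DESeq2 and at an unadjusted p under 0.05). Their median of -0.11 stayed below 0 under each scaling. Of all genes tested 12.5% fell and 9.01% rose. CHORDC1, a co-chaperone of HSP90, measured 43.8, 43.6 and 43.6 CPM untreated and 33.7, 33.4 and 33.1 CPM treated (-0.39, SE 0.029, edgeR adjusted p 3.79e-07). HSPA1A (-0.36, SE 0.034) and HSPA1B (-0.35, SE 0.036), near-identical genes of the inducible HSP70 whose reads cannot be assigned with certainty, fell together, and DNAJB1 (-0.19), HSPA8 (-0.20) and HSPB1 (-0.13) fell by less. With the nuclear RNA covariate 8 members fell and 1 rose. In the endoplasmic reticulum list 9 of 25 fell (36%) and 2 rose (8%), or 4 and 1 with the covariate, with a median of -0.07. HSPA5, the chaperone BiP, fell from 829 ± 16.9 to 716 ± 4.52 CPM (SD, n = 3), and DNAJB9 fell too (-0.40, SE 0.036).

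Genes of redox defence and lipid synthesis changed by small amounts. Of 24 genes of the NRF2 pathway and glutathione 8 fell (33.3%, against 12.5% of all genes tested) and 0 rose in edgeR, with a median of -0.07. In DESeq2 9 fell and 0 rose, and 1 rose at an unadjusted p under 0.05. HMOX1, heme oxygenase, went from 53.1, 56.6 and 51.3 to 42.3, 41.7 and 41.9 CPM (-0.36, SE 0.034), OSGIN1 changed by -0.37 (SE 0.033) and the ferritin light chain FTL by -0.17 (SE 0.027). In the cholesterol list 7 of 23 fell (30.4%) and 1 rose (4.35%), with a median of -0.04. The falls were led by INSIG1, a brake on SREBP processing, at 61.6, 60.1 and 60.01 CPM untreated and 46.9, 45.5 and 45.5 CPM treated (-0.40, SE 0.034). In fatty acid synthesis 6 of 14 fell (42.9%) and 2 rose (14.3%), with a median of -0.06. SREBF1, the master regulator, rose by 0.29 on the log2 scale and the desaturase SCD changed by -0.11.

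Growth-related lists moved by small amounts. Of 47 DNA replication genes 11 rose (23.4%) and 1 fell (2.13%), with a median of 0.07. The share called either way, 25.5%, was close to the 27.3% of all well-expressed genes, of which 8.94% rose and 18.3% fell. Among those that rose were TK1 (0.24, SE 0.033), POLE (0.31, SE 0.06), MCM3 (0.19) and MCM5 (0.15). The number of replication genes rising was 18 under upper-quartile factors, 22 under library size alone and 21 at an unadjusted p. Of 38 mitosis genes 9 rose (23.7%) and 1 fell (2.63%), 26.3% either way, with a median of 0.05. Under library size alone 15 rose, and with the block 3 fell. CDC25C, the phosphatase that starts mitosis, rose from 23.4 ± 0.423 to 28.2 ± 0.218 CPM (SD, n = 3). UBE2C, a ubiquitin-conjugating enzyme of mitotic exit, fell from 146 ± 4.47 to 126 ± 0.0635 CPM (SD, n = 3). Of 35 immediate early and MAP kinase feedback genes 15 fell (42.9%) and 0 rose in edgeR, with a median of -0.08. In DESeq2 1 rose, and with the replicate block or at an unadjusted p under 0.05 3 rose. PIM1, a survival kinase, measured 95.9, 94.5 and 93.4 and 70.7, 68.7 and 69.5 CPM (-0.44, SE 0.024), and MYC 237, 242 and 234 and 203, 202 and 206 CPM (-0.22, SE 0.022). FOSL1 (-0.27), KLF6 (-0.28), PIM3 (-0.26) and ETV4 (-0.29) also fell.

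Ribosomal protein and respiratory chain genes varied in their counts with the model. Of 78 cytosolic ribosomal protein genes 14 (17.9%) fell and 0 rose, with a median of -0.08, and this share was close to the 18.3% of all well-expressed genes that fell. RPL28, for example, went from 1175 ± 31.3 to 1090.4 ± 7.41 CPM (SD, n = 3). The number that fell was 53 with the replicate block, 52 without untreated replicate 3, 0 to 4 without any other replicate, 35 in DESeq2, 3 with upper-quartile factors or library size alone and 0 with the nuclear RNA covariate, and the number that rose was 0 in each of these and at an unadjusted p under 0.05. Of 76 respiratory chain genes 14 (18.4%) fell, again close to 18.3%, and 0 rose (0 in DESeq2 and at an unadjusted p under 0.05), with a median of -0.06, and 21 fell with the replicate block, 6 with upper-quartile factors or library size alone, 22 without untreated replicate 3, 4 to 6 without any other replicate and 2 with the covariate. In the collagen list 10 of 31 rose (32.3%) and 3 fell (9.68%), against 9.01% and 12.5% of all genes tested, with a median of 0.10. COL17A1 (0.22, SE 0.029), PLOD1 (0.17, SE 0.026), P4HB (0.13) and COL1A2 (0.12) rose.

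The parental cells were treated with the same inhibitor, and no library is shared between the responses. Over all genes tested, 728 (4.99%) responded higher and 369 (2.53%) lower in resistant than in parental cells, by more than 1.5-fold and with an adjusted p below 0.05 in edgeR's interaction test. At 8 CPM or more the numbers were 276 and 148, and with library size alone 495 and 80. Of the 860 well-expressed genes that rose in resistant cells 411 (47.8%) rose and 249 (29%) fell in parental cells, where 30.7% of all well-expressed genes rose and 37.4% fell. Of the 1763 that fell 794 (45%) fell and 452 (25.6%) rose there.

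The 11 leading falls mostly ran against the parental response. In 8 of them the parental genes rose at an adjusted p under 0.05 and the difference was called, and in the other 3, SLC7A5, ASNS and CREB3L3, they fell. The 11 genes were picked by their fall in resistant cells, which is part of the difference. The log2 fold change of ADM was -1.96 in resistant and 0.31 in parental cells, a difference of -2.27 (edgeR adjusted p 9.84e-12). For ANKRD37 it was -1.41 and 0.69 (difference -2.09, edgeR adjusted p 6.9e-12), for GDF15 -1.36 and 0.43 (difference -1.79), for CXCR4 -0.98 and 0.81 (difference -1.80) and for SLC2A3 -0.60 and 0.59 (difference -1.18). ASNS had -0.66 and -0.58, and the difference of -0.08 did not pass (edgeR adjusted p 0.0962). Of the 12 leading rises 11 also rose in parental cells, and PPFIA4 and SH3D21 had a called difference, with the smaller response in resistant cells. Treated parental replicate 3 was itself rich in nuclear-retained RNA. It had 596 CPM of MALAT1 and 575 CPM of NEAT1, against 289 and 281 and 262 and 257 CPM in treated parental replicates 1 and 2. The difference between the lines was not counted with the nuclear RNA covariate, so the part of this library in it was not tested that way.

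The lists differed between the lines to different degrees. For glycolysis the median was 0.16 in resistant and 0.54 in parental cells, with 4 of 20 members called lower in the difference and 0 higher. For HIF targets the medians were 0.08 and 0.53, with 12 of 40 members called lower and 1 higher, the latter EGLN3, a HIF prolyl hydroxylase under 1 CPM named after its value was seen. For the integrated stress response they were -0.23 and -0.15, with 5 of 39 called lower and 1 higher, and for the tRNA synthetases -0.15 and -0.18, with 0 of 23 called either way by edgeR, as none differed by over 1.5-fold at any p. Metallothioneins had medians of 0.29 and 0.48 and no difference over 1.5-fold at any p. The ribosomal protein genes, like the heat shock and endoplasmic reticulum lists among others, had medians of opposite sign, with a median of -0.08 in resistant and 0.17 in parental cells, where 73 of 78 rose, and none of the differences reached 1.5-fold. LDHA rose by 0.34 in resistant and 0.62 in parental cells on the log2 scale, a difference of -0.28 (edgeR adjusted p 9.55e-05) that is under 1.5-fold.

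**Figure D5:**
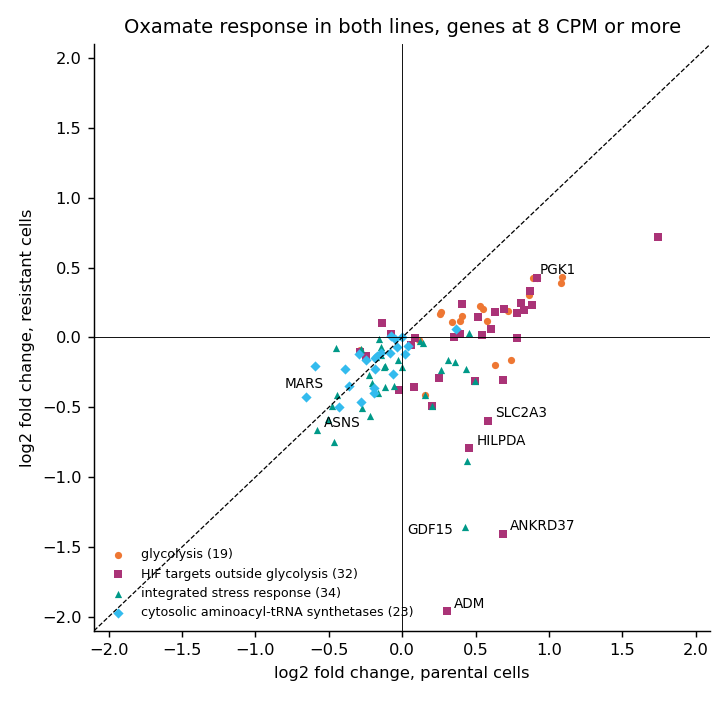
Log2 fold change under oxamate in resistant cells (vertical) against parental cells (horizontal) for the members of 4 lists with a mean of 8 CPM or more, with the line of equal response dashed. Below that line lie 18 of 19 glycolysis genes, 28 of 32 HIF targets, 27 of 34 stress response genes and 11 of 23 tRNA synthetase genes. The share of all genes at 8 CPM or more below the line was not counted, and it depends on the scaling between the lines. The counts therefore describe the points drawn and show nothing particular to these lists.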

How the data were processed

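RNA was sequenced from 12 samples, 4 groups of 3. According to the study's methods and the submitters' processing notes, the authors mapped reads with Bowtie2 2.1.0 to UCSC transcripts (hg38) and deposited the expected counts per gene that RSEM 1.2.15 estimates, without normalization. RSEM divides reads among matching transcripts, so values need not be whole, and 6562 of 26475 symbols had 0 in all libraries. Columns were assigned to samples by the column names in the labels' descriptions, and 0 further columns held sample values.

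These values were rounded before testing. The tests ran in edgeR 4.0.16 under R 4.3.3, with default filterByExpr, TMM, and glmQLFit with glmQLFTest on the 4 group means over all 12 libraries, with treated minus untreated contrasts and their difference. The biological coefficient of variation was 3.53%. Low levels were bounded by a floor of 3 counts. Intervals and floors cover counting error only. At 14582 tests p-values were adjusted by Benjamini-Hochberg. The code was tested on simulated data.

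The 27 gene lists, like the comparison itself, were chosen with earlier results of these data known. The genes named were LDHA and LDHB, all called genes at 8 CPM or more, the 8 lower-level genes in each direction with the smallest p among those with an adjusted p under 0.05 and separate groups, and up to 6 members of each list (12 for the integrated stress response, HIF, metallothionein and amino acid transporter lists) with an adjusted p under 0.05, 186 genes in all. Others are marked as named after their values were seen.

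Same-numbered untreated and treated resistant samples deviated together from their group means over the 9623 well-expressed genes (correlations 0.111, 0.223 and 0.439 for replicates 1, 2 and 3). The numbers were therefore taken to pair these samples, but the pairing is uncertain. Both replicate 1 samples correlated best with replicate 2 of the other group. The pair of replicate 3 joins the libraries with the highest sum of nuclear-retained RNAs in their groups (1217 and 1516 CPM). The fit with the replicate block is given where it changed a call. Parental samples with the same number did not pair in this way (0.251, -0.268 and -0.144), though the block in the fit of all 12 libraries covers them too.

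Alternatives were other normalizations, filters and levels of the split, unrounded counts, the block, DESeq2 1.42.0, limma-voom from limma 3.58.1, glmTreat, the 6 resistant libraries alone, a covariate for nuclear-retained RNA and each replicate left out in turn. The fits that combine the block with the 6 libraries or with the covariate were added after seeing the data. Motifs were searched in RefSeq promoter windows of GRCh38.p14. Older symbols were matched through RefSeq synonyms. Some members of the lists are not reported here.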

Additional observations from a re-analysis of the deposited data

Results flagged for a closer look

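For 42 of the named genes the response to oxamate differed between resistant and parental cells, at an adjusted p under 0.05 and over 1.5-fold in edgeR's test of the difference itself. The values in brackets are the log2 response of resistant cells minus that of parental cells. It was lower in resistant cells for 37 genes and higher for 5. Most named genes were picked by a small p in the resistant response, which is itself part of the difference. The counts are therefore no test of direction. Over all genes tested the response was higher in resistant cells for 728 (4.99%) and lower for 369 (2.53%).

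Among HIF targets and glycolysis genes the difference was lower for ADM (-2.27), ANKRD37 (-2.09), HILPDA (-1.25), SLC2A3 (-1.18), PPFIA4 (-1.02), ANGPTL4 (-0.99), SLC2A1 (-0.83), ENO2 (-0.69), DDIT4 (-0.69), ALDOC (-0.65), NDRG1 (-0.65), P4HA1 (-0.63) and PLOD1 (-0.61). Among stress and protein folding genes it was lower for GDF15 (-1.79), NUPR1 (-1.33), HSPA1B (-1.11), HSPA1A (-1.11), DNAJB9 (-0.78), DNAJB1 (-0.75), HMOX1 (-0.74) and BBC3 (-0.66). Among signalling, lipid and sugar genes it was lower for CXCR4 (-1.80), HKDC1 (-1.09), PIM1 (-0.87), PIM3 (-0.66), PLK3 (-0.75), KLF10 (-0.75), INSIG1 (-0.70), IFITM1 (-0.70), NEU1 (-0.60) and SH3D21 (-0.74). Among genes under 8 CPM it was lower for BLOC1S5-TXNDC5 (-3.08), PAPL (-1.06), LOC100506082 (-0.90), BIN2 (-0.85), FOXP4-AS1 (-0.78) and GTF2H2 (-0.62), of which the readthrough transcript and GTF2H2 share reads with other genes.

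The difference was higher in resistant cells for DNAJC28 (1.31), IFIT2 (0.86), ACTRT3 (0.85), IFIT3 (0.69) and ZNF224 (0.65). IFIT2 and IFIT3 are interferon-stimulated genes, and ZNF224 is a zinc finger repressor.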

How the results depend on the processing

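For well-expressed genes called higher (12 as reported) the number was 6 in DESeq2, 6 at an adjusted p, 2 with the nuclear RNA covariate, 2 with the covariate and the replicate block, 3 at a split of 16 CPM, 0 in edgeR's glmTreat against 1.5-fold (3 at its unadjusted p), and 6 to 33 with a replicate left out. For those called lower (11) it was 6 in glmTreat and 7 at a split of 16 CPM. For low genes called higher (313) it was 169 with a mean count of at least 25, 197 in DESeq2, 150 with the covariate, 147 with covariate and block, 163 at an adjusted p, 0 in glmTreat (106 at its unadjusted p), and 236 to 481 with a replicate left out, the highest without untreated replicate 3. For low genes called lower (29) it was 69 with no filter, 15 with a mean count of at least 25, 16 in DESeq2, 44 with the covariate, 66 with covariate and block, 12 at an adjusted p and 0 in glmTreat (11 at its unadjusted p).

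At an adjusted p, rises among well-expressed genes (860) were 460 with the covariate, 273 with covariate and block, 1523 with the replicate block in the 6 resistant libraries alone and 471 to 849 with a replicate left out. Falls (1763) were 1138 with library size alone, 897 with the covariate, 647 with covariate and block, and 1097 to 1921 with a replicate left out. The difference between the lines gave 276 and 148 genes as reported and 495 and 80 with library size alone.

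The medians of the 6 lists followed here kept their sign in each fit where they were taken. They were not taken in DESeq2, limma-voom or glmTreat, with other filters or with unrounded counts. Upper-quartile factors gave 0.18 for glycolysis, -0.15 for amino acid transporters, -0.12 for tRNA synthetases and 0.10 for HIF targets, and library size alone gave 0.19, -0.14, -0.12 and 0.11, with -0.20 for the stress response. The covariate gave 0.20 for glycolysis, -0.26 for the stress response and -0.15 for the transporters, and with the block 0.21, -0.27, -0.077, -0.11 for the synthetases and 0.19 for the metallothioneins. The 6 resistant libraries alone gave 0.22 for the metallothioneins, and 0.22 with the block. With a replicate left out, glycolysis ranged from 0.15 to 0.18, the transporters from -0.17 to -0.14 and HIF targets from 0.061 to 0.098. The cause of these shifts was not tested.

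Of the 186 named genes none changed sign while called. The block left 180 calls as they were and added 6, which are the genes given in the text, DESeq2 ended 6 of 184, and the covariate ended 42. Depth limits genes under 1 CPM, where counts like the 84 untreated and 47 treated of BIN2 over 3 libraries each carry a change.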

Other observations

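Several further lists held calls in both directions, where 21.5% of all genes tested and 27.3% of well-expressed genes were called at an adjusted p under 0.05. Of 36 interferon-stimulated genes 3 rose and 7 fell at an adjusted p under 0.05 in edgeR (27.8% called, median -0.02). IFIT3 measured 27.4, 28.3 and 26.3 CPM untreated and 31.4, 31.7 and 30.7 CPM treated (0.19, SE 0.036), IFIT2 rose by 0.24 on the log2 scale, and the membrane proteins IFITM1 (-0.26), IFITM2 (-0.23) and IFITM3 (-0.23) fell. These IFITM genes are close copies. TAP1, a peptide transporter of antigen presentation, fell from 89.7 ± 2.73 to 79.4 ± 1.4 CPM (SD, n = 3). Of 18 NF-kappaB targets 1 rose and 5 fell (33.3%, median -0.02), among them the chemokine CXCL8 from 74.2 ± 0.619 to 63.3 ± 1.37 CPM (SD, n = 3), RELB (-0.23) and TNFAIP3 (-0.21). Of 18 p53 targets 3 rose and 4 fell (38.9%, median 0.01), with TP53INP1, a regulator of autophagy and cell death, at 5.497, 5.54 and 6.44 CPM untreated and 8.04, 8.05 and 9.25 CPM treated (0.54, SE 0.094).

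Of 27 autophagy and lysosome genes 2 rose and 8 fell (37%, median -0.04), among them SQSTM1 (-0.15), CTSL (-0.22) and NEU1 (-0.25). Of 17 mitochondrial tRNA synthetases 3 rose and 4 fell (41.2%, median -0.03), but 1 rose and 0 fell with the nuclear RNA covariate, and 0 rose without untreated replicate 1 or treated replicate 3. Of 9 genes of MondoA glucose sensing 4 fell and 0 rose (0 in DESeq2 and at an unadjusted p under 0.05). TXNIP, which curbs glucose uptake, measured 790.3, 775 and 786 CPM untreated and 731, 735 and 732 CPM treated (-0.10, SE 0.025). The others that fell were KLF10 (-0.36), ARRDC3 (-0.15) and MLX (-0.16), the last a partner of MondoA rather than a target. Of 13 genes of hexose and polyol handling 2 rose and 3 fell (38.5% called, median 0.05). Of 20 histone genes 1 rose and 0 fell (0 falls in DESeq2 and at an unadjusted p under 0.05), HIST1H2BK at 0.22.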
